A study of Homo sapiens with 9 samples.

Results

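The genes described here are 49 protein-coding genes of nucleocytoplasmic transport, the nuclear pore and the nuclear lamina. They fell into 6 roles, namely the RAN cycle (6 genes), exportins (4), importin alpha adaptors (5), the importin beta family (9), nucleoporins (16) and the lamina with the inner nuclear membrane (9). Their Ago-HITS-CLIP peaks were found by position alone, as every peak whose midpoint lay within the hg19 gene body on the strand of the gene. In the list for miR-342-3p this gave 39 of 3450 peaks, in that for miR-342-5p 39 of 5010, and 39 of the 49 genes had a peak in at least 1 list. The cells were MDA-MB-231HM, a highly metastatic derivative of the human MDA-MB-231 triple-negative breast cancer line, labelled WT, so all groups share 1 cell line. They were transfected with 20 nM of a mimic of either miR-342 strand or of a negative control mimic, 3 replicates each, and crosslinked with ultraviolet light after 48 h. In this assay, Ago2 is immunoprecipitated with the RNA that it holds, and the attached RNA fragments are sequenced. Each deposited list gives peaks of 1 mimic over the negative control mimic with the replicates merged, so there is no value per sample, no error between replicates and no known depth. Both lists share the negative control libraries. Peaks of 1 gene are not replicates, and the 95% Wilson confidence intervals (CI) and exact tests below cover counting error only. The lists hold no expression values, so neither the identity of the cells nor the abundance of each mRNA could be checked from them.

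Cargo crosses the nuclear pore bound to importins or exportins, and the small GTPase RAN sets the direction: RAN loaded with GTP in the nucleus releases import cargo and joins export complexes. The pore is a ring of nucleoporins in the nuclear envelope, and the lamina is the intermediate filament mesh under the inner membrane, tied to the cytoskeleton through SUN proteins. A miRNA loaded into Ago pairs with target RNA mainly through its seed, and matches in 3′UTRs are the best known to lower mRNA and protein output. MIR342 gives both mature strands, whose seeds have unrelated target words.

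The mature strands from RefSeq are shown with the seed (bases 2 to 8) in capitals, because the words searched under the peaks derive from it.
miR-342-3p: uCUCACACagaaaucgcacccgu
miR-342-5p: aGGGGUGCuaucugugauuga
For miR-342-3p the target words were the 8mer GUGUGAGA, the 7mers GUGUGAG and UGUGAGA, and the 6mer UGUGAG. For miR-342-5p they were the 8mer GCACCCCA, the 7mers GCACCCC and CACCCCA, and the 6mer CACCCC. A site in the following text is an 8mer or 7mer word within 50 nt of the summit on the strand of the peak.

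Apart from the XPO7 peak, which scored highest and is not printed, the 8 highest-scoring miR-342-3p peaks with such a site are shown over 30 nt of the GRCh37 genome on the strand of the gene, with the site in capitals.
NUP133, chr1:229599332-229599361, minus strand: ttggtacaaatGTGTGAGcagactgacaac
NUP93, chr16:56868312-56868341, plus strand: gtttctgcgctGTGTGAGtgagcttgtgat
NUP188, chr9:131761933-131761962, plus strand: tgctgaatgtcTGTGAGAccctccaagagg
CSE1L, chr20:47689130-47689159, plus strand: tggcttcagttTGTGAGAgacctcattata
KPNB1, chr17:45760313-45760342, plus strand: agaatgagtgtGTGTGAGtgaggcggtatc
XPO1, chr2:61720096-61720125, minus strand: caaggagaagtTGTGAGAgaattcatgaag
NUP188, chr9:131710013-131710042, plus strand: cggcgggccgtGTGTGAGgtgcggagcggg
LMNB1, chr5:126112924-126112953, plus strand: cccgcgtgcgtGTGTGAGtgggtgtgtgtg
The KPNB1 stretch lay in the 3′UTR and the LMNB1 stretch in the 5′UTR, and the other 6 belonged to peaks in coding exons. Of the NUP188 stretch at chr9:131710013-131710042, 18 of the 30 bases were exonic. The flanks of KPNB1 and LMNB1 held further alternating G and T.

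Of the 8 highest-scoring miR-342-5p peaks with a site, 7 are printed in the same way.
KPNA2, chr17:66039265-66039294, plus strand: acaagaatcctGCACCCCcgatagatgctg
SUN1, chr7:883088-883117, plus strand: gtgctcacggcGCACCCCgcggcccccggg
KPNA1, chr3:122145891-122145920, minus strand: acagcagcattGCACCCCAggttgacctta
KPNA4, chr3:160245776-160245805, minus strand: gcttctccattCACCCCAtcagaatgtctg
NUP188, chr9:131768588-131768617, plus strand: gacccggctgtGCACCCCcgggacaaacag
SUN2, chr22:39132206-39132235, minus strand: gtgggtgaacaGCACCCCgccgcttccccc
NUP210, chr3:13359118-13359147, minus strand: ccgagcctcgtGCACCCCcaagatggaaca
The SUN2 and NUP210 stretches lay in 3′UTRs and the other 5 in coding exons. KPNA1 held the only 8mer among these 7.

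The miR-342-3p list had a peak in 30 of the 49 genes (61.2%, CI 47.2–73.6%), against 11.8% of all 20163 protein-coding genes. The miR-342-5p list had one in 27 (55.1%, CI 41.3–68.1%), and the share of all protein-coding genes was again 11.8%. Peaks of both lists were present in 18 genes, of miR-342-3p only in 12 and of miR-342-5p only in 9. The 10 genes without a peak were RANBP1, RCC1, NUTF2, KPNA6, IPO7, IPO8, IPO9, NUP88, EMD and TMPO. A peak with a site was present in 8 genes for miR-342-3p (16.3%, CI 8.51–29.0%; 3.13% of all protein-coding genes) and in 13 for miR-342-5p (26.5%, CI 16.2–40.3%; 6.35% of all). Both shares were thus several times the background, which includes genes that may not be expressed in these cells. The genes were chosen with earlier results of these data known, so shares above the background are not evidence about the group or any role in it. Counts of genes with a peak by role, given below, are to be read beside the same 11.8%. The spliced mRNAs of the group had a median length of 5051 nt, against 2889 nt over all protein-coding genes. The part of mRNA length and abundance in these shares was not tested.

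The deposited score, which the authors describe as reads above background, had a median of 26 over the miR-342-3p peaks of the group (range 5 to 518) and of 24 over the whole list. For miR-342-5p the medians were 29 (range 6 to 185) and 19. The scale of the scores to library depth is not known, so they were ranked only within a list. With peaks of a gene within 50 nt joined, the 39 peaks formed 35 regions in each list, and 5 miR-342-3p and 6 miR-342-5p peaks had a near-identical copy elsewhere in the genome, which leaves the origin of their reads uncertain. The former lay in RAN, KPNA4, NUP50 and KPNB1 (2 peaks) and the latter in RANBP2, KPNA2, KPNA4, TNPO3, POM121 and LMNA. Scores of 100 or more were reached by 3 miR-342-3p peaks, in XPO6, RAN and XPO1 (7.69%, against 10.9% of the whole list). The same held for 2 miR-342-5p peaks, in KPNA2 and KPNB1 (5.13%, against 7.25% of the whole list). None of these 5 peaks lay in a 3′UTR, and of the 5 only the KPNA2 peak had a site.

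**Figure D1:**
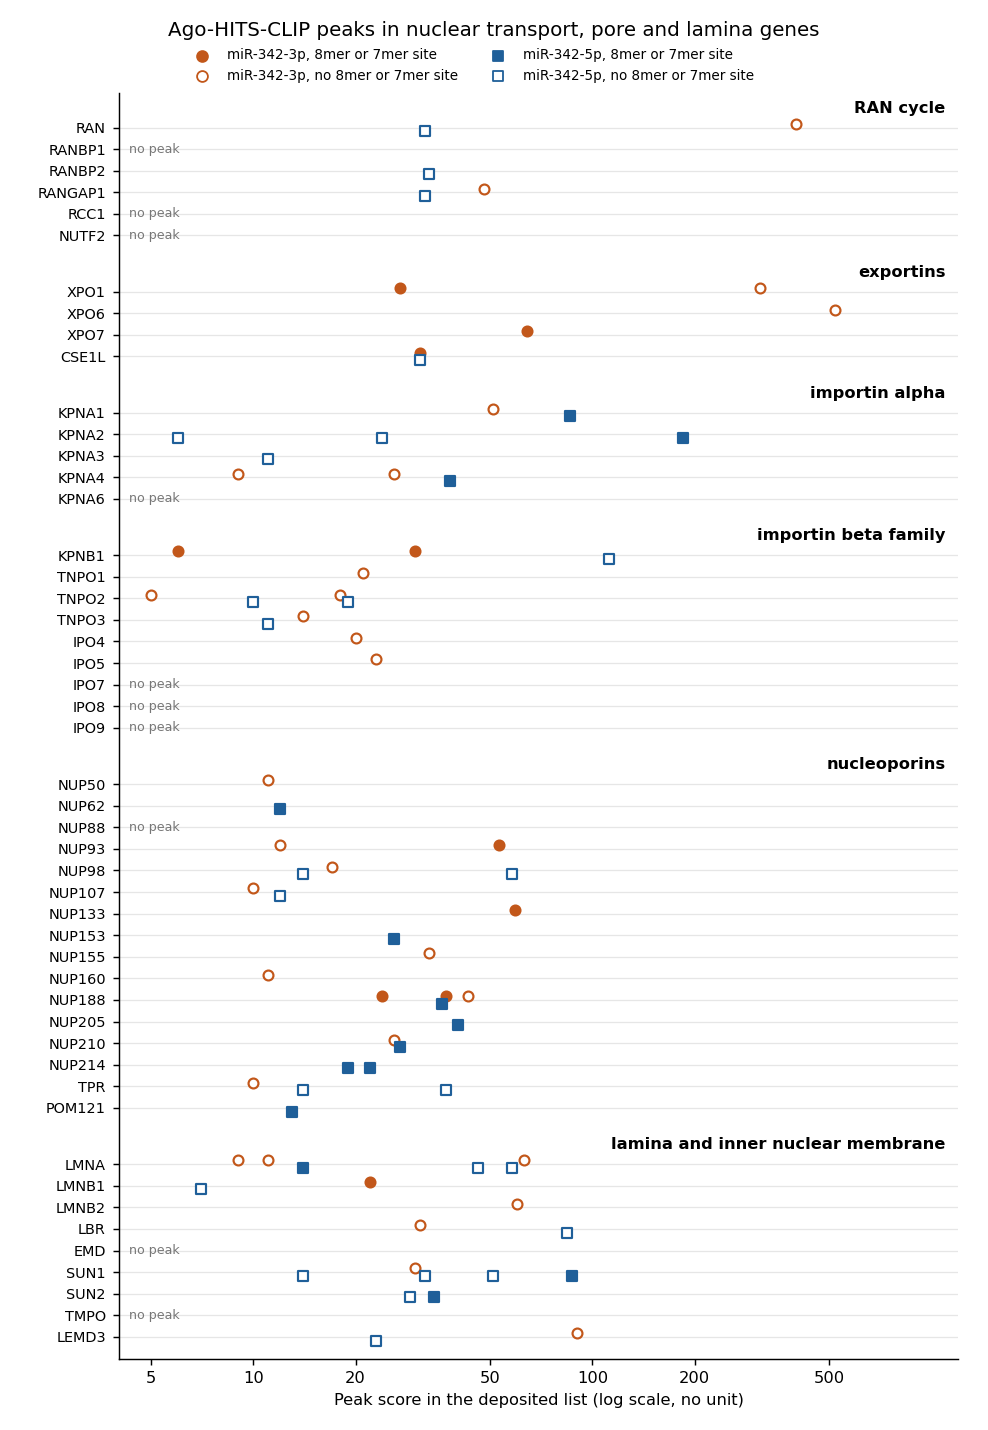
Score of every peak (log axis, no unit) in the 49 genes, grouped by role, with circles for the miR-342-3p list, squares for the miR-342-5p list and filled symbols for peaks with an 8mer or 7mer site. The 3 highest miR-342-3p symbols (XPO6 at 518, RAN at 398, XPO1 at 313) are open, the highest miR-342-5p symbol (KPNA2 at 185) is filled, and 10 genes have no peak.

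In the RAN cycle, 2 of 6 genes had a miR-342-3p peak and 3 of 6 a miR-342-5p peak, and none of these 5 peaks had a site. The miR-342-3p peak of RAN, the GTPase itself, had a score of 398, above 98.4% of that list. It lay in coding exon 5 of 7 (chr12:131359118-131359243), with its midpoint at 51.9% of the coding sequence. Neither of the 2 7mers counted in the RAN 3′UTR had a miR-342-3p summit within 50 nt. The first of these words began at mRNA base 718 and so overlapped the end of the coding sequence at base 719. The miR-342-5p peak of RAN had a score of 32. Its midpoint fell in an intron, but 108 of its 190 bases were exonic and it touched 2 exons. The RAN coding peak had 1 near-identical copy elsewhere in the genome (96.8% identity). RANGAP1, which stimulates GTP hydrolysis by RAN, had a 3′UTR peak in each list, with a score of 48 for miR-342-3p and of 32 for miR-342-5p. Their summits were 334 nt apart, and the miR-342-5p peak held a 6mer. RANBP2, a RAN-binding nucleoporin of the cytoplasmic filaments, had a coding exon peak of miR-342-5p (score 33) that matched 5 other genomic positions (best identity 96.8%). The nucleotide exchange factor RCC1, the RAN-binding protein RANBP1 and the RAN import carrier NUTF2 had no peak.

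All 4 exportins of the group had a miR-342-3p peak, and 1 of 4, CSE1L, a miR-342-5p peak. Over all protein-coding genes the share was 11.8% in each list. Of the exportins outside the group, XPO4 and XPO5 had peaks of miR-342-5p only, and XPOT had none. The group was chosen with earlier results of these data known, so this contrast is not evidence about exportins. XPO6, which exports actin, had the highest score of the group, 518, at a peak in the 5′UTR (chr16:28222725-28222818) that spanned 94 nt without any seed match. XPO1, the receptor for leucine-rich export signals, had a 5′UTR peak (score 313) and a coding exon peak (score 27). The 5′UTR peak lay on an alternating run of G and U of 32 nt, and the coding exon peak held a 7mer. XPO7 had a 3′UTR peak with a score of 64 over the only 8mer in a miR-342-3p peak of the group, with the word centred 1 nt from the summit. CSE1L, which returns importin alpha to the cytoplasm, scored 31 in each list, in exon 10 for miR-342-3p with a 7mer and in exon 25 for miR-342-5p without one.

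Importin alpha genes, the adaptors that bind classical import signals, had a miR-342-5p peak in 4 of 5 cases and a miR-342-3p peak in 2 of 5. All 6 miR-342-5p peaks lay in coding exons, and 3 of them had a site. KPNA2 had 3 adjacent miR-342-5p peaks in exon 7 with scores of 185, 6 and 24. The highest was centred on a 7mer, 1 nt from the summit, and scored above 97.1% of that list. KPNA1 had a miR-342-5p peak with a score of 86 over an 8mer near the end of the coding sequence, at 94.5% of its length. Its miR-342-3p peak, with a score of 51 in exon 7, had no site. KPNA4 had a miR-342-5p peak with a score of 38 and a 7mer, and 2 miR-342-3p peaks without a site (scores of 26 and 9). The miR-342-5p peak had 1 near-identical copy in the genome (98.9% identity), as had the miR-342-3p peak with a score of 9 (96.0%). In KPNA3 the single miR-342-5p peak had a score of 11.

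In the importin beta family, 6 of 9 genes had a miR-342-3p peak and 3 of 9 a miR-342-5p peak. The scores stayed at 30 or below in all but 1 peak. That peak was in KPNB1, importin beta itself, with a miR-342-5p score of 112 in coding exon 5 (chr17:45735940-45736004) and without a seed match. The miR-342-3p peaks of KPNB1 lay in its 3′UTR with scores of 30 and 6, and both windows reached the same 7mer. The larger had 3 near-identical copies in the genome (best identity 100%). TNPO1, TNPO2, TNPO3, IPO4 and IPO5, which carry other import cargo, had only coding exon peaks, with scores from 5 to 23. The IPO4 window reached a 7mer only along the spliced mRNA, since the word lay beyond an exon junction. The IPO4 peak also lay within another gene on the same strand. It fell in a 3′UTR when transcripts of every gene were used, so its assignment is uncertain.

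Among the 16 nucleoporins, 10 had a miR-342-3p peak and 10 a miR-342-5p peak, with 13 peaks in each list. A site was present at 4 of the 13 in the miR-342-3p list, compared with 8 of the 13 for miR-342-5p. The shares over the whole lists were 20.6% and 33.0%, and adjacent peaks of NUP214 held 2 of the 8. Among nucleoporins outside the group, NUP85 had a miR-342-3p peak with a site. The miR-342-5p peaks of POM121C, RAE1 and SEC13 had none. In the outer ring, NUP133 had the highest miR-342-3p score of the nucleoporins, 59, in exon 19 with a 7mer, whereas the scores of NUP107 and NUP160 were 12 or below. In the inner ring, NUP93 had miR-342-3p peaks with scores of 53 (with a 7mer at the summit) and 12. NUP188 had 3 miR-342-3p peaks with scores of 43, 37 and 24 and 1 miR-342-5p peak with a score of 36. Sites were present at the peaks with scores of 37, 24 and 36, and the peak with a score of 43 reached a 7mer along the spliced mRNA. The peak with a score of 24 also lay within another gene on the same strand. NUP205 had a miR-342-5p peak with a score of 40 and a 7mer, and NUP155 a miR-342-3p peak with a score of 33 and no match.

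NUP98, a nucleoporin with phenylalanine-glycine repeats, had miR-342-5p peaks with scores of 58 and 14 and a miR-342-3p peak with a score of 17, all in coding exons, and the peak with a score of 58 held a 6mer. NUP214, NUP153 and NUP62 had only miR-342-5p peaks, with scores from 12 to 26, all in coding exons and all with a site. The NUP62 peak also lay within IL4I1 and another gene on the same strand. It fell in a 3′UTR when transcripts of every gene were used, so its assignment is uncertain. NUP210, which spans the envelope, had a peak of each list in its 3′UTR. The miR-342-5p peak (score 27, with a 7mer) lay 32 nt past the last coding base, and the miR-342-3p peak (score 26, no match) 832 nt past it. POM121, the other membrane nucleoporin, had a single miR-342-5p peak with a score of 13 and an 8mer in an intron. It had 2 near-identical copies in the genome, and the paralog POM121C had 5 miR-342-5p peaks, so its assignment is uncertain. At the nuclear basket, TPR had coding exon peaks only, with scores of 10 for miR-342-3p and of 37 and 14 for miR-342-5p, and NUP50 had a single miR-342-3p peak with a score of 11 in its 3′UTR.

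Of the 9 lamina and inner membrane genes, 6 had a miR-342-3p peak and 6 a miR-342-5p peak. LMNA, which encodes lamins A and C, had 3 peaks in each list. The miR-342-3p peaks had scores of 63 and 11 in exon 3 and of 9 in the 3′UTR, all without a seed match. The miR-342-5p peaks had scores of 58 in exon 1, 46 in exon 8 and 14 in the 3′UTR, and only the last had a 7mer. That 3′UTR peak also had a copy at 100% identity elsewhere in the genome. LMNB1 had a miR-342-3p peak with a score of 22 in its 5′UTR, centred on a 7mer, and a miR-342-5p peak with a score of 7 over the start of its coding sequence. LMNB2 had a miR-342-3p peak with a score of 60 in exon 11 and no miR-342-5p peak. The lamin B receptor LBR had a miR-342-5p peak with a score of 84 in exon 5 and a miR-342-3p peak with a score of 31 in exon 11, both without a seed match.

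SUN1 had 4 miR-342-5p peaks, with scores of 87, 51, 32 and 14, and 1 miR-342-3p peak with a score of 30. All 5 lay in coding exons, and only the peak with a score of 87 had a site. SUN2 had 2 miR-342-5p peaks. The one with a score of 34 lay 26 nt past the last coding base over a 7mer, and the one with a score of 29 lay in exon 15 with a 6mer. LEMD3, an inner membrane protein with a LEM domain, had a 3′UTR peak in each list, with a score of 90 for miR-342-3p and of 23 for miR-342-5p. Their summits were 826 nt apart, and the first reached only a 6mer 44 nt from its summit. The LEM-domain genes EMD and TMPO had no peak.

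**Figure D2:**
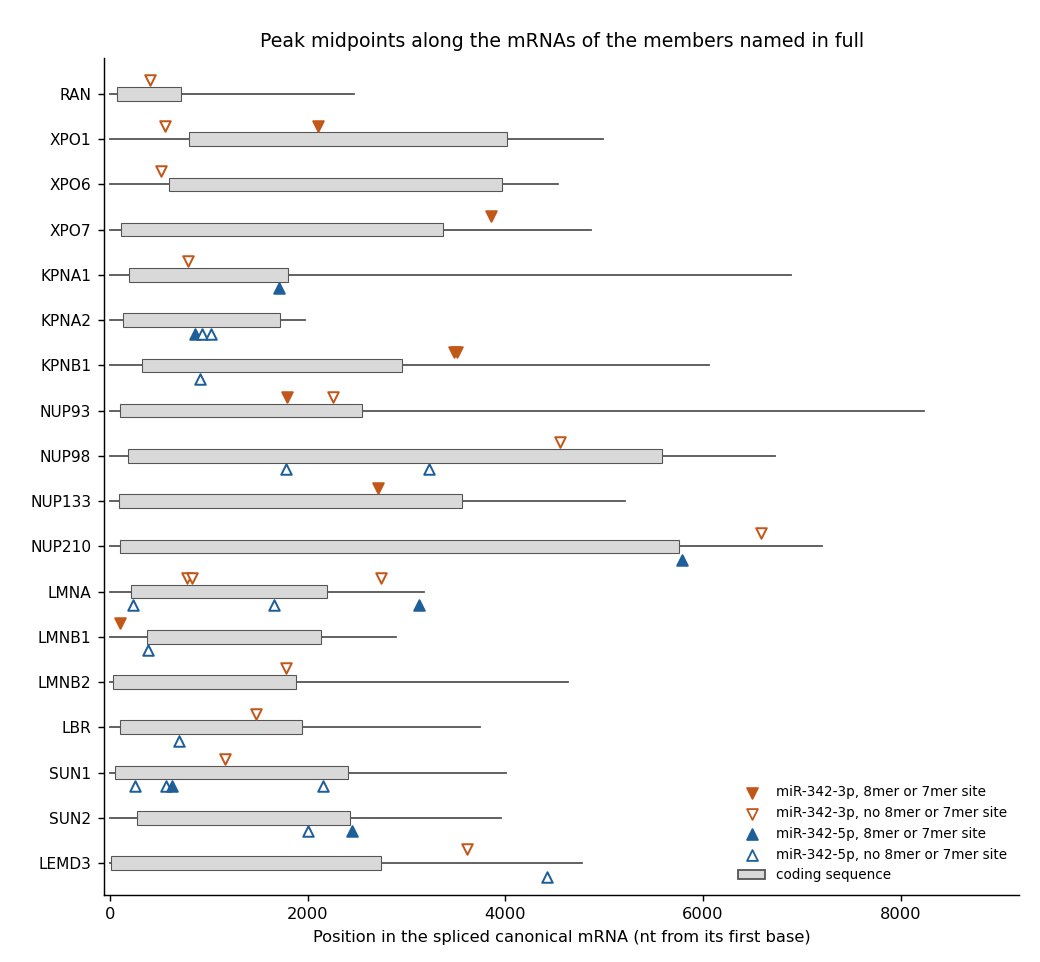
Spliced canonical mRNAs (nt from the first base) of the 18 genes described in full, with the coding sequence as a grey box, miR-342-3p peak midpoints above, miR-342-5p midpoints below and filled symbols for peaks with an 8mer or 7mer site; the RAN miR-342-5p midpoint is intronic and not drawn. Most symbols fall on the grey boxes, while the XPO1 (score 313) and XPO6 (score 518) symbols lie before them and the filled SUN2 and NUP210 symbols just after them.

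The first comparison asked whether peaks of the 2 mimics lay in different parts of these genes. Coding exons held 26 of 39 miR-342-3p peaks (66.7%, CI 51.0–79.4%) and 32 of 39 miR-342-5p peaks (82.1%, CI 67.3–91.0%). The 3′UTR held 10 (25.6%, CI 14.6–41.1%) and 5 (12.8%, CI 5.60–26.7%), the 5′UTR 3 and 0, and introns 0 and 2. The 3 peaks in a 5′UTR were those of XPO6, XPO1 and LMNB1. Within the group, the difference in the coding share did not exceed counting error (odds ratio of miR-342-5p to miR-342-3p 2.26, exact 95% CI 0.714–7.75, two-sided Fisher's exact test, p = 0.194, adjusted over 4 tests p = 0.250). The same held for the 3′UTR share (odds ratio 0.431, exact 95% CI 0.103–1.58, Fisher's exact p = 0.250, adjusted p = 0.250). These intervals leave room for a difference in either direction. Over the whole lists, coding exons held 55.0% of miR-342-3p peaks against 69.5% for miR-342-5p, and 3′UTRs 34.2% against 17.9%. All of these whole-list shares lay within the confidence intervals of the group. They are over all peaks of a list, also those in none of these parts, placed on the transcripts of every gene.

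**Figure D3:**
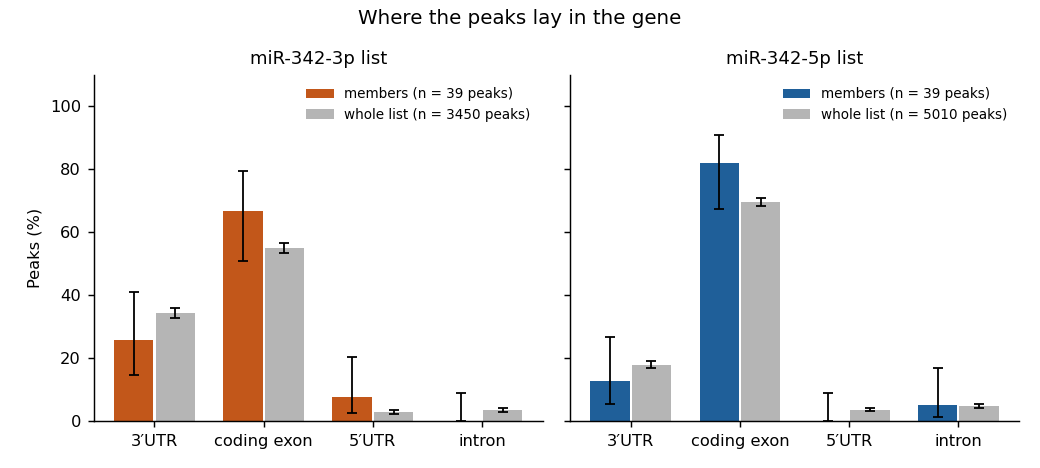
Percentage of peaks in each part of the gene for the 39 peaks of the group (coloured) and the whole list (grey), with 95% Wilson intervals, for miR-342-3p (left) and miR-342-5p (right). Coding exons hold most peaks of the group in both lists, 66.7% and 82.1%, and the intervals of the group are wide.

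The second comparison asked whether the peaks carried the seed site of the transfected strand. For miR-342-3p, 10 of 39 windows had a site (25.6%, CI 14.6–41.1%), and for miR-342-5p, 14 of 39 (35.9%, CI 22.7–51.6%). The opposite strand had no site in any window of either list (0 of 39, CI 0–8.97%). The difference between strands exceeded counting error in the miR-342-3p list (exact McNemar test, two-sided, p = 0.00195, adjusted p = 0.00391) as well as in the miR-342-5p list (p = 0.000122, adjusted p = 0.000488). The strands of a window can differ in base composition, and the part of this in the difference was not tested. With scores above 50 only, 3 of 10 and 3 of 8 windows had a site, and the exact McNemar test gave p = 0.250 in each list. No window of the group held a site of the other mimic. The shares over the whole lists were 20.6% and 33.0%, within the intervals of the group. Only 1 of the miR-342-3p windows and 2 of the miR-342-5p windows had an 8mer. Peaks with a site had a median score of 30.5 in both lists, against 22 and 24 for peaks without any seed match, which also include the peaks with the 3 highest miR-342-3p scores.

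**Figure D4:**
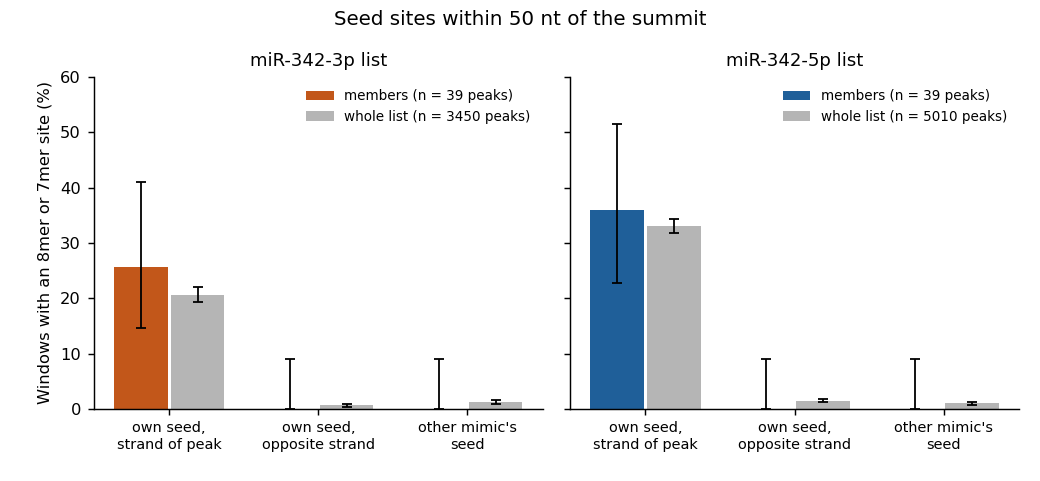
Percentage of windows within 50 nt of the summit that held an 8mer or 7mer site of the mimic's own seed on the strand of the peak, on the opposite strand, and of the other mimic's seed, with 95% Wilson intervals. The group has 25.6% and 35.9% on the strand of the peak and 0 of 39 in both other searches.

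Where a site was present it lay close to the summit. Its centre was within 15 nt of the summit in 9 of 10 miR-342-3p peaks and 14 of 14 miR-342-5p peaks, compared with 86.7% and 91.8% over the whole lists. The exception was the KPNB1 peak with a score of 6, whose site lay 40 nt away under the larger neighbouring peak.

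**Figure D5:**
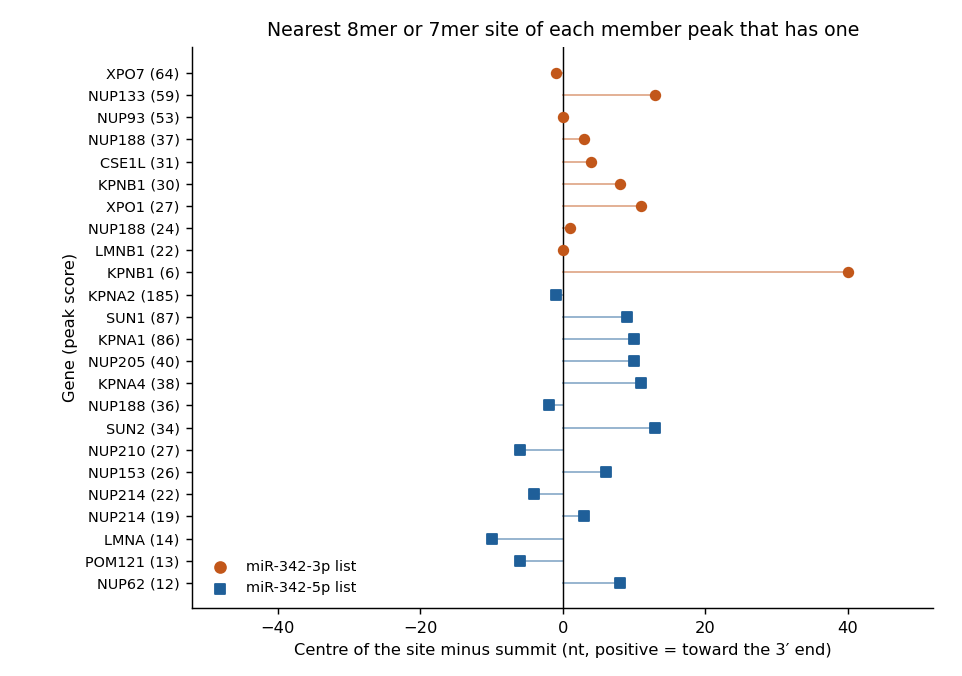
Distance in nt from the summit to the centre of the nearest 8mer or 7mer site, positive toward the 3′ end, for the 24 peaks of the group with a site, labelled by gene and score. All but the KPNB1 peak with a score of 6 fall within 15 nt of the summit.

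The sites available in these mRNAs were also counted, each placed by the centre of its word. Among 18 miR-342-3p words (8mer or 7mer) in coding sequences of the group, 8 had a miR-342-3p summit within 50 nt on the genome or along the mRNA, compared with 2 of 27 in 3′UTRs. Over all protein-coding genes the shares were 8.53% in coding sequences and 4.80% in 3′UTRs. Of 6 miR-342-3p 8mers in 3′UTRs, only that of XPO7 had a summit, and those of IPO9, KPNA4, KPNA6, NUP50 and NUP210 had none. For miR-342-5p, 10 of 22 words in coding sequences and 3 of 8 in 3′UTRs had a summit (16.5% and 6.52% over all protein-coding genes). The 3 in 3′UTRs were those of SUN2, NUP210 and LMNA. Annotated sites are not all in mRNAs that these cells express, so the shares describe the annotation and not occupancy per molecule. The genes were also chosen with earlier results of these data known. Shares above those of all protein-coding genes are therefore not evidence about the group.

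Searched on the genome, the majority of windows (28 with miR-342-3p, 21 with miR-342-5p) held no seed match, not even a 6mer. Among them were the 3 highest miR-342-3p peaks of the group. The miR-342-3p windows of IPO4 and of the NUP188 peak with a score of 43 were also among them. Both reached a 7mer along the spliced mRNA. For the highest-scoring peaks without a seed match, 3 of the miR-342-3p list and 2 of the miR-342-5p list, 30 nt around the summit are printed. Capitals mark words that differ from the 8mer at 1 of its 8 letters, or an alternating run of G and T.
XPO6, miR-342-3p, chr16:28222744-28222773, minus strand: cgggaccatgacctgaactgtgcgagcggg
RAN, miR-342-3p, chr12:131359169-131359198, plus strand: tacgaGTGTGTGAAAacatccccattgtgt
XPO1, miR-342-3p, chr2:61764891-61764920, minus strand: gGTGTGTGTGTGTGTGTGTGTGTGTGTGTG
KPNB1, miR-342-5p, chr17:45735956-45735985, plus strand: atgtgaagctagctgctacgaatgcactcc
LBR, miR-342-5p, chr1:225607002-225607031, minus strand: ctggcagtgagaacctttgaagtgaccccc
The RAN stretch holds 2 overlapping words of that kind, GTGTGTGA and GTGTGAAA. Those of XPO6, KPNB1 and LBR hold none.

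Of the 28 miR-342-3p windows without a seed match, 6 held such a near-match (21.4%, CI 10.2–39.5%), and 1 held it on the opposite strand. They were GUGUGAAA in RAN and TNPO3, GUGUGUGA in KPNA4, GGGUGAGA in NUP188, GUGUGAUA in NUP98 and GCGUGAGA in LMNB2. For miR-342-5p, 3 of 21 windows held one (14.3%, CI 4.98–34.6%) and none on the opposite strand, namely GCACCUCA in TNPO2, GCAUCCCA in NUP98 and GCAACCCA in TPR. All 9 words began within 8 nt of the summit. They were searched on the genome, and the NUP188 word began 1 nt before a summit at the last base of its peak. The same NUP188 window reached a 7mer along the spliced mRNA, so it lacked a seed match only on the genome. Whether its near-match lies in the mRNA was not checked. Over the whole lists the shares in windows without a seed match were 16.7% for miR-342-3p (2.09% on the opposite strand) and 16.0% for miR-342-5p (4.64%). Only the XPO1 window, 1 of 39 in that list, held an alternating G and U run of 20 nt or more, against 6.26% of the whole list.

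Pairing with the full mature strand was predicted with RNAduplex, where a more negative energy means a more stable duplex. In windows without a seed match, the median energy of miR-342-3p was -15.0 kcal/mol on the strand of the peak and -8.95 kcal/mol on the opposite strand, and the strand of the peak was the more stable in 26 of 28. The other mature strand, miR-342-5p, had a median of -14.15 kcal/mol in the same 28 windows, close to that of miR-342-3p. For miR-342-5p the medians were -15.7 and -13.3 kcal/mol, and the strand of the peak was the more stable in 17 of 21. In these 21 windows the median of miR-342-3p was -9.90 kcal/mol. Over the whole lists the strand of the peak was the more stable in 83.6% and 63.3% of such windows. The XPO1 5′UTR window had the most negative value for miR-342-3p, -25.7 kcal/mol against -11.0 kcal/mol on the opposite strand. Energies depend on base composition, and no test was made.

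In the 40 further genes of the same pathway that were listed for comparison, 7 had a miR-342-3p peak (17.5%, CI 8.75–32.0%) and 9 a miR-342-5p peak (22.5%, CI 12.3–37.5%). They held 9 and 17 peaks. The highest scores were 51 in RAE1 for miR-342-3p, 51 in XPO5 and 44 in RANBP3 for miR-342-5p, and none of these 3 peaks had an 8mer or 7mer site. Both lists had a peak in SEC13 and RAE1. These genes were listed with results for the group known, and the difference from the group was not tested.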

How the data were processed

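Ago-HITS-CLIP libraries of MDA-MB-231HM cells (9 samples, 3 per mimic) were processed by the authors. The submitters' processing notes name cutadapt 1.13, TopHat2 2.0.13, UMI-tools and MACS2 2.1.1.20160309, and reads were mapped to hg19 and filtered with Samtools. The authors deposited 2 merged peak lists, each with a score per peak of at least 5. Scaling between libraries is not given in the sources used here, and depth per sample is unknown.

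Peaks were placed by midpoint and strand on GENCODE release 44 mapped to GRCh37, using basic transcripts of the gene and, where these differed, taking the 3′UTR first, then coding exon, 5′UTR and intron. Whole lists were placed on the transcripts of every gene. Coordinates are 1-based. Sites were searched within 50 nt of the summit, from RefSeq mature sequences (GRCh38.p14). Near-identical copies were sought with blastn 2.17.0 (95% identity, 90% of the peak). Software was Python 3.11.15, scipy 1.17.1, pysam 0.24.0, samtools 1.23.1, RNAduplex 2.7.2 and matplotlib 3.10.9. The search, placement and tests were tested on simulated data. Fisher's exact and McNemar tests were two-sided, adjusted by Benjamini-Hochberg over 4 tests. The members and lists were chosen with earlier results of these data known. Genes were described in full if a peak had a score of 50 or more, or lay in a 3′UTR with a site, and RAN and LMNB1 in any case (RAN also met the score rule). Summit stretches without a seed match and near-match words were chosen after their values were seen. The 8 highest site stretches (XPO7 left out) and 3 highest summit stretches per list were taken by score, and 2 of these are not reported here. Alternatives were the score minimum, the overlap rule, the transcripts, the window and the words counted. Peaks were called on merged samples, so replicates could not be compared.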

Additional observations from a re-analysis of the deposited data

How the results depend on the processing

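The numbers of peaks and genes stayed within 1.5 times their value under every alternative but scores above 50, which left 10 peaks in 10 genes for miR-342-3p and 8 peaks in 7 genes for miR-342-5p. The excess of sites on the strand of the peak lost significance in the exact McNemar test with scores above 50 (differences of 30.0 and 37.5 percentage points, p = 0.250 in each list) and with 8mers only (2.56 and 5.13 percentage points, p = 1 and 0.500), the first leaving 10 and 8 windows and the second 1 and 2 windows with a site, and passed the threshold under all other alternatives. With only the highest peak of each gene kept, 6 of 30 miR-342-3p windows and 12 of 27 miR-342-5p windows had a site. The exact McNemar test then gave p = 0.031 and p = 0.000488. The spliced window, chosen after seeing the data, raised the miR-342-3p difference to 30.8 percentage points. The location comparisons kept their direction and stayed above the threshold under all alternatives, with p from 0.0591 (introns left out) to 0.280 for coding exons and from 0.250 to 0.512 for 3′UTRs. No paired analysis was possible because the lists merge the replicates, and for the same reason no replicate could be left out.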
